A study of Mus musculus with 8 samples.

Results

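Brown adipose tissue (BAT) can make heat by routes that do not pass through Ucp1, and 10 genes of 2 such routes were followed here in a list of ATAC-seq peaks from mouse BAT. They were chosen by name as Ckb, Ckmt1, Ckmt2, Gatm, Gamt and Alpl of the creatine route and Atp2a1, Atp2a2, Ryr1 and Ryr2 of the calcium route. A peak summit was counted as being at one of these genes when it fell inside the gene or no more than 50 kb from a transcription start site (TSS) of one of its RefSeq mRNAs. Of the 32173 summits in the deposited list, 81 (0.252%) met this rule, at 9 of the 10 genes, which are 10 of the 21000 genes with a curated mRNA in the annotation.

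ATAC-seq inserts adapters with the Tn5 transposase into DNA that nucleosomes leave free, so that reads gather where chromatin is open. The labels gave 2 WT and 2 Dot1L-BKO ATAC-seq samples of BAT, all from mice fed chow, aged 12 weeks and held at 4°C for 4 hr before collection. The WT mice were Dot1l f/f controls, and the Dot1L-BKO mice carried the floxed Dot1l gene with Ucp1-Cre, which deletes it in cells that express Ucp1, so that other cells of the tissue kept Dot1l. RNA-seq samples, also 2 per genotype, were not analysed here. The ATAC-seq values are a single list for the 4 libraries, which names the WT libraries against the Dot1L-BKO libraries, with 1 summit, the highest point, for each peak. Its score here is −log10 of the MACS2 q-value. No library has values of its own in it, so that depth and replicate error are unknown here and the genotypes could not be compared. Whether the Dot1L-BKO libraries served as the MACS2 control is not known here. If they did, a summit and its score would stand for WT signal over Dot1L-BKO signal, and if they did not, for open chromatin in the libraries together, and the list does not tell which. No test was made, and all values below describe this list.

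In creatine cycling, creatine kinases pass phosphate from ATP to creatine, and a phosphatase in the mitochondria of thermogenic fat cells removes it again, so that ATP is spent and heat is released. In calcium cycling, SERCA pumps use ATP to move calcium into the endoplasmic or sarcoplasmic reticulum, ryanodine receptors let it out, and repeated rounds release heat. Both routes are known from thermogenic fat cells, though not only from them, and the same proteins also serve energy buffering and contraction in skeletal and heart muscle.

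Sequences are shown first for 8 of the 10 genes, because position and base content differ between the genes in ways that the scores do not show. Each line gives the plus strand of mm10 (GRCm38 reference, RefSeq) from 50 bases before to 50 bases after the summit, and names the distance from the TSS of the gene. Capitals mark matches to the short patterns that were searched, and a line without capitals holds none. For each gene the highest promoter summit was taken or, without one, the highest summit nearest to its TSS, and Gatm and Ckmt2 had neither. The last 2 Ckb lines were added after their values were seen.
Ckb, 703 bp downstream, chr12:111671585-111671685: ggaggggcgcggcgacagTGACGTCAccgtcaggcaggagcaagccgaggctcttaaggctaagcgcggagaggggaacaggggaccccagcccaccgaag
Ckb, 25 bp upstream, chr12:111672313-111672413: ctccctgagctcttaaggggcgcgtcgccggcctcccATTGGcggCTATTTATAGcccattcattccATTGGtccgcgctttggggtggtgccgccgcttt
Ckb, 3739 bp downstream, chr12:111668549-111668649: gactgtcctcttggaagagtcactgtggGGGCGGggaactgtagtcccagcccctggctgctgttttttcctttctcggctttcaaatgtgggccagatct
Ckmt1, 2762 bp upstream, chr2:121354964-121355064: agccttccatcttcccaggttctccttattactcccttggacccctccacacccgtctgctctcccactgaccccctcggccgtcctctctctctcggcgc
Gamt, 645 bp upstream, chr10:80261607-80261707: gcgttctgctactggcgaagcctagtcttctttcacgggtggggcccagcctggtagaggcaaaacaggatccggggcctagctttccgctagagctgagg
Alpl, 19182 bp downstream, chr4:137747243-137747343: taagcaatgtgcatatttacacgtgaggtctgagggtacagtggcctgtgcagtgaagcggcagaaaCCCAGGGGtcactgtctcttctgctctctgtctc
Atp2a1, 2115 bp upstream, chr7:126465138-126465238: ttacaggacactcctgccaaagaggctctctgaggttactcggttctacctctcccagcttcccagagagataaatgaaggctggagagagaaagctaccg
Atp2a2, 877 bp upstream, chr5:122503052-122503152: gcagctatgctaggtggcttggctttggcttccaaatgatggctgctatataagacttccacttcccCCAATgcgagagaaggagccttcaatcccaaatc
Ryr1, 25898 bp downstream, chr7:29099203-29099303: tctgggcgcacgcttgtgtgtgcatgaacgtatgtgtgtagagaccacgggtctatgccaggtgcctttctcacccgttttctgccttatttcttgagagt
Ryr2, 31507 bp upstream, chr13:12138402-12138502: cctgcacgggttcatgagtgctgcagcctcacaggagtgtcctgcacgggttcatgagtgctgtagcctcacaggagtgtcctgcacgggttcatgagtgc

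The 10 genes differed widely in the number of summits called at them. Gamt had 26 summits, Ckb 13, Atp2a1 11, Alpl 10, Atp2a2 8, Ryr1 5, Gatm 4, Ryr2 3 and Ckmt1 1, and Ckmt2 had none. Over all genes the median was 2 summits, with quartiles of 0 and 5, and 72.5% of genes had at least 1, beside 9 of these 10. Many summits in these windows belonged by position to neighbours. The nearest TSS was that of the named gene for 26 of the 81 summits, and for the other 55 it was that of 1 of 19 other genes. By gene, the summits nearest to its own TSS numbered 7 at Atp2a2, 6 at Alpl, 4 at Ckb, 3 at Gamt, 3 at Ryr2, and 1 each at Ckmt1, Atp2a1 and Ryr1, with none at Gatm or Ckmt2. Thus 8 of 10 genes had a summit nearest to their own TSS, beside 54.5% of all genes, and the order of the genes by this count was not the order by all summits in the window. The 95% Wilson interval for counting error was 49.0% to 94.3% for these 8. For the 9 genes with any summit it was 59.6% to 98.2%, and both intervals held the share of all genes.

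**Figure D1:**
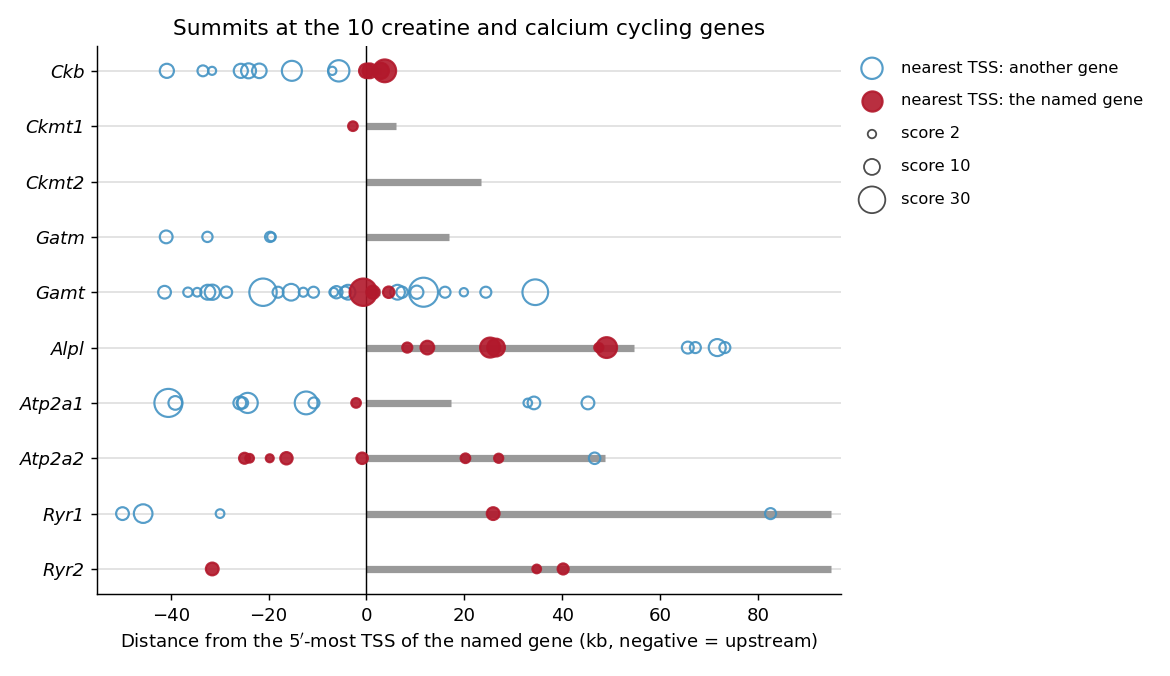
Position of the 81 summits along the 10 genes, as distance in kb from the TSS at the 5′ end of each gene (negative is upstream). Grey bars are gene bodies (those of Ryr1 and Ryr2 run past the right edge), point area grows with the score, and filled red points are the 26 summits nearest to a TSS of the named gene. Ckb has 4 red points at the gene, Alpl has all 6 inside the gene, and Gatm and Ckmt2 have none.

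A promoter summit, one within 1 kb of a TSS, was found at Ckb, Gamt and Atp2a2. These are 3 of 10 genes (30%, with a 95% Wilson interval of 10.8% to 60.3% for counting error), beside 45.2% of all genes, which lies inside that interval. The 10 genes were chosen by name and are not a random sample, so such intervals only describe the counts and are not a test. A summit inside the gene body was found at 6 of 10 genes, Ckb, Gamt, Alpl, Atp2a2, Ryr1 and Ryr2, beside 39.7% of all genes. The interval for these 6 was 31.3% to 83.2%, which holds that share. Ryr2 is 553.8 kb long, Ryr1 121.8 kb, Alpl 54.7 kb, Atp2a2 48.7 kb, Ckb 2.98 kb and Gamt 2.86 kb. Gene length was not taken into account in this comparison. The highest promoter score was 31.7 at Gamt, 8.45 at Ckb and 4.61 at Atp2a2. Of the genes with a promoter summit, whose median was 10.7, 86.8% scored lower than Gamt, 39.6% lower than Ckb and 17.2% lower than Atp2a2. Just inside the 1 kb limit lay the Atp2a2 summit, and the next outside it was the Gamt summit at 1332 bp.

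Ckb, the cytosolic creatine kinase of brain and other tissues, had 4 summits of its own, all within 4 kb of its TSS. The gene is short, from 111669355 to 111672338 on the minus strand of chromosome 12. The summit at the start of the gene was 25 bp upstream of the TSS with a score of 8.12, and the one in intron 2 was 703 bp downstream with a score of 8.45. A summit 2937 bp downstream, in the part of the last exon that encodes the 3′ UTR, had a score of 10.4, and the highest, at 21.6, lay 756 bp past the 3′ end of the gene. The 2 scores at the promoter were thus the lower ones, and the higher ones were at the end of the gene. The other 9 summits in the window, with scores from 1.71 to 18.8, were all upstream and nearest to Trmt61a or Bag5.

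The sequence at the Ckb start site, printed after its values were seen, held matches to more than 1 pattern. A match to the MEF2 pattern, the AT-rich element of a family of factors known from muscle, lay with its centre 0.5 bases from the summit, between 20 and 29 bp upstream of the TSS. The MEF2 pattern was held by 0.314% of all summits and 0.523% of all promoters in the RefSeq table, which run from 250 bases before to 50 after a TSS. A TATA box, the AT-rich element that places RNA polymerase II at some promoters, usually lies about there too, and the letters alone do not tell such elements apart. On either side of it was a CCAAT box, the letters that NF-Y binds, written ATTGG on the plus strand. These letters are common, and were held by 24.85% of all summits and 39.4% of all promoters. The intron 2 summit held the palindrome TGACGTCA, the cyclic AMP response element, between 728 and 735 bp downstream of the TSS. That element was found at 1.03% of all summits, in 2.42% of promoters and at no other of the 26 summits nearest to these genes. A match is a description of the letters and says nothing of what was bound.

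Ckmt1 and Ckmt2, the mitochondrial creatine kinases, had next to no summits in this list. Ckmt1 is the form found in many tissues, and its 1 summit lay 2762 bp upstream of a TSS with a score of 2.92, below the lower quartile of the list, 3.05. Ckmt2 is the sarcomeric form of heart and skeletal muscle. No summit lay within its window, and the closest was 69279 bp downstream of its TSS with a score of 17.4, nearest to Zcchc9. A window with no summit is a statement about this list at its q-value cutoff and at an unknown depth, and does not show that the chromatin was closed.

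Gatm and Gamt encode the first and the last enzyme of creatine synthesis, and Gamt had a promoter summit while Gatm had none. Gatm, which makes guanidinoacetate, had no summit in its gene body or promoter and none nearest to its own TSS. Its 4 summits, with scores of 2.15, 3.44, 3.49 and 6.02, lay between 19413 and 40921 bp upstream, at Spata5l1 and AA467197. Gamt, which methylates guanidinoacetate to creatine, had the highest promoter score of the 10 genes. Its summit 645 bp upstream of the TSS, with a score of 31.7, ranked 1445 in the list of 32173. A summit in intron 2, 1332 bp downstream, had a score of 6.53, and another 4554 bp downstream, in intron 7 of the neighbour Ndufs7, had 4.61. None of the patterns was found in the sequence printed for the Gamt promoter summit.

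The 26 summits of the Gamt window, more than at 98.5% of all genes, were mostly those of its neighbours. The remaining 23 were nearest to Pwwp3a, Ndufs7, Dazap1, Rps15 or Apc2, and 5 other genes had a TSS in the window. The highest score in any of the 10 windows, 35.8, was there and belonged by position to Ndufs7, a subunit of complex I of the respiratory chain, 11663 bp downstream of the Gamt TSS. Just inside and outside the 50 kb limit, among the 10 genes, lay a summit 49849 bp upstream of Ryr1 with a score of 6.02 and one 50471 bp from the Gamt TSS with a score of 4.16.

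Alpl, which encodes tissue-nonspecific alkaline phosphatase, the enzyme that removes phosphate from phosphocreatine in creatine cycling, had its own summits inside the gene. All 6 summits nearest to its TSSs were intronic, and neither of its 2 curated TSSs had a summit within 1 kb. The gene runs from 137741731 to 137796384 on the minus strand of chromosome 4. The highest, with a score of 17.8, was in intron 8, 19182 bp downstream of the inner TSS, and held the EBF pattern CCCNNGGG in the sequence printed above. EBF2 is a factor known for the identity of brown adipocytes, and EBF matches were present at 3 of the 26 summits nearest to the 10 genes (11.5%), beside 15.7% of all summits. Intron 1 held the other 2 high scores, 16.4 and 12.8, which lay 4638 and 3426 bp upstream of the inner TSS. The summits 12451 and 8340 bp downstream of the outer TSS, also in intron 1, scored 7.05 and 3.32, and the last, in intron 7, scored 2.53. Alpl had no other gene's TSS in its window, and its 10 summits were more than at 87.3% of all genes. The 4 summits nearest to another gene, Rap1gap, lay past the 3′ end of Alpl, with scores from 4.16 to 11.5.

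**Figure D2:**
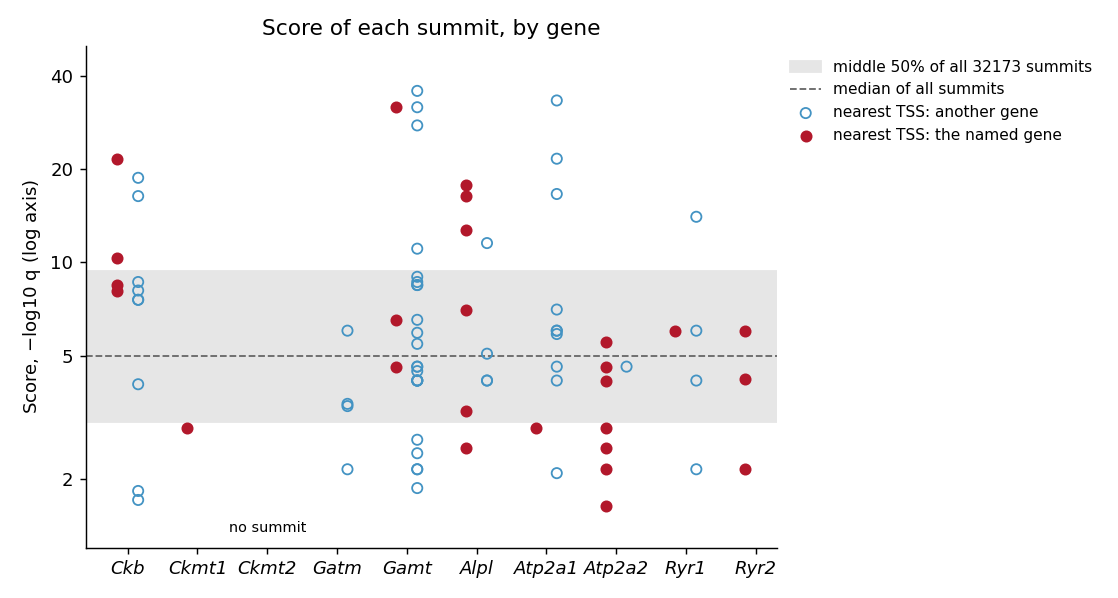
Score of each of the 81 summits (−log10 of the q-value, log axis), by gene, with filled red points for summits nearest to a TSS of the named gene and open blue points for the others. The grey band spans the quartiles of all 32173 summits (3.05 to 9.39) and the dashed line is their median (5.0). Ckb, Gamt and Alpl are the only genes with a red point above 10, and all 7 red points of Atp2a2 lie below 6.

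Atp2a1 and Atp2a2 encode SERCA pumps, and Atp2a2, the pump found in most cell types, had 7 summits of its own beside 1 at Atp2a1. The 7 were more than at any other of the 10 genes, and no other gene had a TSS in the window of Atp2a2. Their scores were low, from 1.64 to 5.55, and the 1.64 was the lowest of all 81 summits. The promoter summit, 877 bp upstream of the TSS, had a score of 4.61. A group of 4 lay farther upstream, at 16345 bp with a score of 5.55, at 19758 bp with 1.64, at 23875 bp with 2.15 and at 24908 bp with 4.16. The highest of these held TGAGTCA, the letters of an AP-1 site, 1 of 26 summits (3.85%) beside 6.40% of all summits. The other 2 lay in intron 5, 20233 and 27024 bp downstream, with scores of 2.92 and 2.53. A further summit in the gene body, in an intron 46631 bp downstream with a score of 4.61, was nearest to Anapc7.

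Atp2a1, the pump of fast skeletal muscle, had 11 summits in its window and 1 of its own. That one lay 2115 bp upstream of the TSS with a score of 2.92, and none lay in the gene body. The other 10 had a median score of 6.02 and were nearest to other genes, with the highest, 33.3, at Atxn2l. The 11 summits were more than at 88.8% of all genes, and 5 other genes had a TSS in the window. The Gamt window held TSSs of 5 other genes as well, and of this pair Gamt had a promoter summit and Atp2a1 did not.

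Ryr1 and Ryr2, the calcium release channels of skeletal and heart muscle, are very long genes, and each had summits in the gene body and none at the promoter. Ryr1 runs over 121.8 kb and had 1 summit of its own, in intron 22, 25898 bp downstream of the TSS with a score of 6.02. Its other summit in the gene body, in intron 84 with a score of 4.16, was nearest to Map4k1, and the highest score in the window, 14.0, was in an intron of Ggn. Ryr2 runs over 553.8 kb and had 3 summits, all its own, of which 2 were in intron 1, with scores of 4.21 and 2.15, and 1 was 31507 bp upstream, with a score of 6.02. Per 100 kb of window this was 0.497 summits at Ryr2 and 2.91 at Ryr1, beside 1.18 over the genome and a median of 1.66 over all genes.

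Some summits lay in tandem repeats, at about the share found over the whole list. In 201 bases around each summit, the share of bases equal to the base a fixed distance before was computed for each distance from 2 to 60, and 70% or more was called a tandem repeat, a measure that was added after the sequences were seen. At the Ryr2 summit upstream of the gene it was 99.4% at a distance of 40, so that the sequence printed above is a unit of 40 bases repeated, and at the Ryr2 summit that scored 4.21 it was 84.4% at a distance of 28. The Atp2a2 summit that scored 1.64 reached 91.0%, and the Ryr1 summit in intron 84 reached 93.0%. These were 4 of 81 summits (4.94%), beside 4.89% of all summits. Of the 26 summits nearest to the genes they were 3 (11.5%), since the one in intron 84 of Ryr1 was nearest to Map4k1. Thus 2 of the 3 Ryr2 summits stood in repeated sequence. How the authors treated reads that map to several places is not given in the sources used here, and its part in these summits was not tested.

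The number of summits in a window went with the number of genes in it. Over all genes with no other gene's TSS in the window the median was 1 summit, with 1 to 2 other genes it was 2, with 3 to 4 it was 3, and with 5 or more it was 8. Alpl and Atp2a2, with no other gene and 10 and 8 summits, lay above the upper quartile of 2 for such genes, and so did Ryr2 with 3, whose window is the longest. Ckb with 3 other genes and Gamt with 5 lay above the upper quartiles of 7 and 15. Atp2a1 with 11 and Ryr1 with 5 lay between the quartiles of their kind, as did Ckmt1 and Gatm at the ends of theirs, and Ckmt2 was at 0, the lower quartile.

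**Figure D3:**
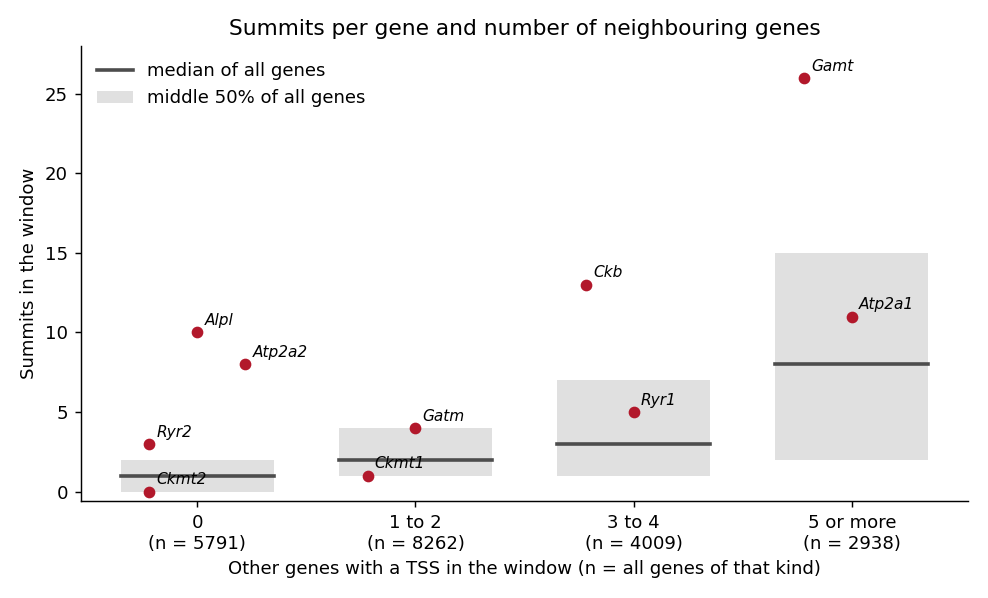
Summits in the window of each of the 10 genes (red points) by the number of other genes with a TSS in that window. Grey boxes span the quartiles and dark lines are the medians of all 21000 genes, in 4 kinds of 5791, 8262, 4009 and 2938 genes. Gamt, Ckb, Alpl, Atp2a2 and Ryr2 lie above the box of their kind.

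The scores at these genes were much like those of the list. The median over the 81 summits was 5.46, and over the 26 nearest to the genes it was 5.08, beside 5.0 over all summits. A score of at least 10 was reached by 17 of 81 (21.0%) and by 6 of 26 (23.1%), beside 23.5% of all summits. Those 6 were 2 at Ckb, 1 at Gamt and 3 at Alpl. MACS2 scores repeat often at low values. The most common one, 4.16, was shared by 1942 summits of the list and 9 of the 81, so that small differences between low scores carry little. Of the 81 summits, 40 lay in introns and 30 between genes, and of the 26 the numbers were 14 and 11.

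GC content goes with promoter summits in this list. Of these genes, some with and some without one stood in the same GC group, and the part of GC content was not tested. The RefSeq promoter table held 9 of the 10 genes and 16839 genes in all, and Atp2a2 was not matched. The share of genes with a promoter summit was 8.38% among the lowest of 5 equal groups by promoter GC content and 69.2% in the highest. Ckb, at 63.0% GC, and Gamt, at 66%, were in the group next to the highest, and so were Gatm at 60.7%, Atp2a1 at 62.3% and Ryr2 at 65.3%, which had no promoter summit. Alpl, at 70%, was in the highest group and had none at a curated TSS. Ckmt1 at 52.0%, Ckmt2 at 53.7% and Ryr1 at 56.7% were at or below the median of all promoters, 56.7%, and had no promoter summit.

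**Figure D4:**
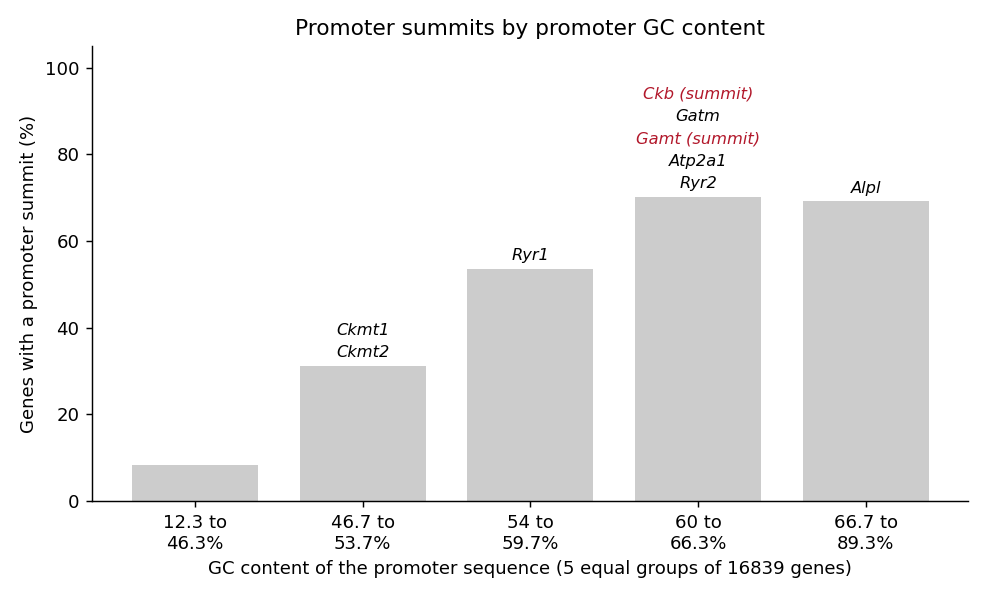
Share of genes with a promoter summit (%) in 5 equal groups of genes by the GC content of their promoter sequence, with the genes of the 2 routes written above the bar of their group. Genes with a promoter summit are in red. In the group with 70.1% of genes having one, Ckb and Gamt did and Gatm, Atp2a1 and Ryr2 did not.

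The other genes of the routes were taken from lists chosen by function. Of 2 further creatine genes, the creatine transporter Slc6a8 and the muscle creatine kinase Ckm, neither had a promoter summit. Of 30 further calcium genes, among them channels, pump regulators, calcium-binding proteins of the reticulum and mitochondrial calcium carriers, 19 had one (63.3%), beside 45.2% of all genes. The highest scores were 78.8 at Calr, which encodes the calcium-binding protein calreticulin, 71.5 at Vdac1, the channel of the outer mitochondrial membrane, and 51.0 at Asph. The remaining SERCA gene, Atp2a3, had one with a score of 2.53.

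The labelled tissue was set beside marker lists, which check it only if summits stand for open chromatin of the libraries together. All 12 genes of the brown adipocyte list had a promoter summit, led by Cidea at 61.5, Ucp1 at 33.7 and Plin5 at 29.3. The list is not particular to brown fat, since Pparg, Adipoq and Plin1 among others are also expressed in white adipocytes. The skeletal muscle list, which includes Ckm, had one at 2 of 20 genes, Mylpf at 43.7 and Actn3 at 22.4, and 0 of 5 heart markers (Myh6, Myl7, Nppa, Tnni3 and Tnnt2) had one. Neurons had 0 of 7 and endothelium 1 of 5, which was Cdh5 at 2.59, while Pecam1, Kdr, Tek and Emcn had none. In the windows of Mylpf and Actn3, 6 and 5 other genes had a TSS, and in those of Cidea, Ucp1 and Plin5 the numbers were 1, 1 and 6. Ucp1 had 12 summits in its window, so that Gamt and Ckb had more and the other 8 genes fewer, while its promoter score was above those of Gamt, Ckb and Atp2a2. The libraries were made from whole tissue, so that fewer nuclei of a cell type and less signal in each cannot be told apart.

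**Figure D5:**
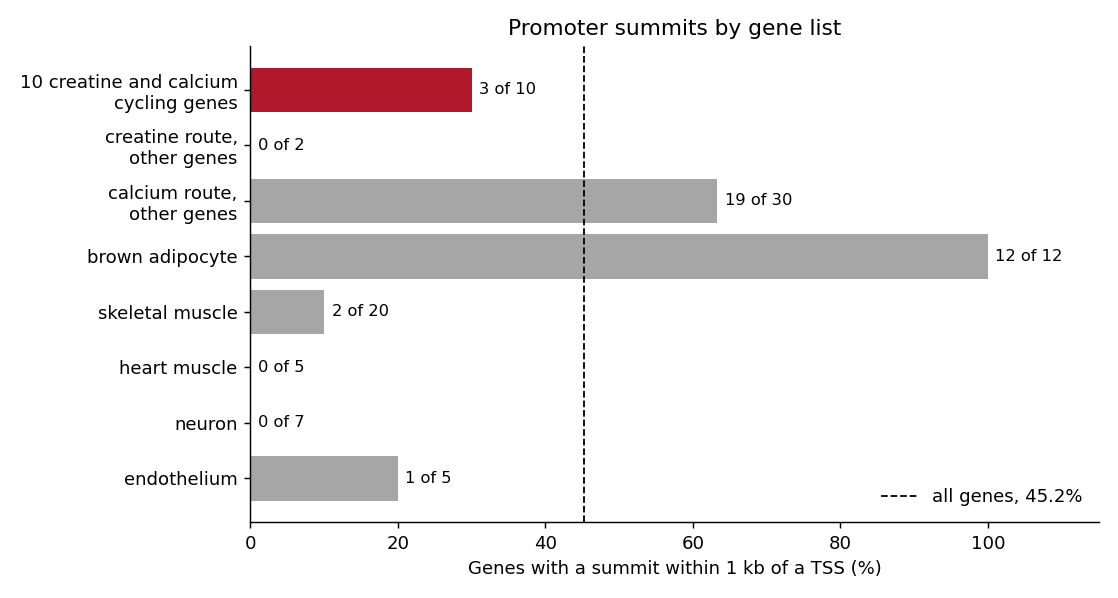
Share of genes with a summit within 1 kb of a TSS (%) in each gene list, with the counts beside the bars and the share of all 21000 genes as a dashed line (45.2%). The 10 creatine and calcium cycling genes are at 3 of 10, and the brown adipocyte list at 12 of 12.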

How the data were processed

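ATAC-seq of BAT nuclei was available for 2 WT and 2 Dot1L-BKO mice, whose nuclei were processed separately. The submitters' processing notes name CASAVA, bcl2fastq 2.2, cutadapt 1.2.1, BWA, MACS2 2.1.1 and mm10. Per the study's methods, peaks were called in the ATAC mode of MACS2, at q up to 0.05 and at least 2.0-fold enrichment. The deposited file used here is 1 list of summits that carries −log10 of each q-value, and its lowest value is 1.31. Whether the Dot1L-BKO libraries were the MACS2 control, whether reads were shifted for Tn5, and how mitochondrial and duplicate reads were handled is not given in the sources used here, and any of these could change which summits were called. The first also sets what a score means, open chromatin in the libraries together or WT signal over Dot1L-BKO signal. With no values per library in this list, depth, replicate error and a comparison of genotypes could not be given.

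Summits were placed on RefSeq (GRCm38.p6, annotation of chromosomes 1 to 19, X and Y) by the nearest TSS of curated mRNAs, 26032 TSSs in all. A promoter reached 1 kb to either side of a TSS. The letters of 12 patterns were searched on both strands within 100 bp of a summit: TCAAGGTCA (ERR), AGGTCA (nuclear receptors), CCCNNGGG (EBF), TTGCNNAA (C/EBP), TGACGTCA (CRE), TGANTCA (AP-1), CAGCTG (MyoD), MEF2, GGGCGG (SP/KLF), GCATGCGC (NRF1), CCGGAAGT (ETS) and CCAAT (NF-Y). AGGTCA lies within the ERR pattern, and the others were counted with any overlap. Genes named were all 10, Ucp1, the gene nearest to the highest summit of a window, and in each list the 3 highest promoter scores and the genes with or without a promoter summit where these were 5 or fewer. Atp2a3 and further neighbouring genes were named after their values were seen. The genes and lists were chosen with earlier results of these data known. Alternatives changed the score minimum, the distances, the transcripts, the merging of summits and the pattern window. The counting was tested on simulated data, where the counts of 200 of 200 genes were recovered. Counts were made in Python 3.11.15 with pandas 2.3.3 and numpy 2.4.6, intervals with scipy 1.17.1 and plots with matplotlib 3.10.9.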

Additional observations from a re-analysis of the deposited data

How the results depend on the processing

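The counts moved with the score minimum, the promoter window and the distance. With a score of at least 10, 1 gene (Gamt) had a promoter summit, 2 had a summit in the gene body, the genes had 17 summits, and 6 were nearest to their TSSs. At a minimum score of 5, the genes had 42 summits, 13 of them nearest. At that minimum 2 genes (Ckb and Gamt) had a promoter summit and 4 had a summit in the gene body. With a window of 500 bp, 1 gene (Ckb) had a promoter summit, and with 5 kb 6 genes did, with Ckmt1, Alpl and Atp2a1 added. With all annotated mRNAs, Alpl was added, for 4 genes. Distances of 10 kb, 25 kb and 100 kb gave 31, 53 and 142 summits at the genes, while those nearest to a TSS of the genes numbered 21, 25 and 26. In all, 12 of 23 counts, some of these included, were within 1.5 times those reported. Among the 12, the falls at a minimum score of 5 from 3 to 2 promoter genes and from 6 to 4 gene-body genes lay at the edge of that limit. The highest Ckb promoter score was 8.12 for the summit nearest the TSS and 21.6 within 5 kb, and Gamt and Atp2a2 had no value with 500 bp. With 50 bp around summits, NF-Y matches went from 7 to 6, AGGTCA from 4 to 1, EBF from 3 to 2 and SP/KLF from 2 to 1. Within 100 bp these patterns were held, in that order, by 26.9%, 15.4%, 11.5% and 7.69% of the 26 summits. Over all summits the shares were 24.85%, 15.2%, 15.7% and 20.6%. No paired analysis was possible because libraries have no values of their own, and for the same reason none could be left out. The depth, unknown here, limits what the absence of a summit shows.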
